A study of Mus musculus with 12 samples.

Results

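The cytosolic ribosomal protein genes were examined across 12 arrays of mouse ventricle. They encode the proteins that join ribosomal RNA to form the large (Rpl) and small (Rps) subunits of the ribosome outside the mitochondria. Members were genes whose symbol is Rpl or Rps followed by a number, with at most a single trailing a, l or x, together with the stalk genes Rplp0, Rplp1 and Rplp2 and with Rpsa. Symbols of S6 kinases (Rps6k) and of pseudogenes ending in -ps were left out, probe sets annotated to several genes were not used, and each gene was represented by its probe set with the highest mean. This gave 59 of the 19938 genes measured, drawn from 215 probe sets: 30 of the large subunit, 20 of the small subunit, 3 of the stalk and 6 alternative paralogs. A further 23 coding genes with such symbols, among them Rpl3 and Rps27, had no probe set of their own and were not analysed here.

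All mice were males of the strain C57BL/6 and had an operation on an outflow artery or a sham operation. Hearts were perfused and cut into right ventricle (RV), septum and left ventricle (LV). The RV groups came 1, 3 and 6 weeks after a clip was closed around the pulmonary artery (PAC, ages 13, 15 and 18 weeks), with a single sham RV group at 3 weeks (age 15 weeks). The LV groups came 3 weeks after a clip was closed around the aorta (TAC, age 15 weeks) and 3 weeks after sham surgery (age 15 weeks). Each of the 6 groups had 2 arrays. The labels do not say whether arrays hold separate animals, so p-values measure the spread between arrays, which may be technical, and PAC at 1 and 6 weeks also differs from its sham in age and time.

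A ribosome needs nearly every one of these proteins, and their messages are among the most abundant in any cell. Many of these messages begin with a C followed by a run of pyrimidines, the 5′ terminal oligopyrimidine (TOP) start, through which growth signals acting on mTOR control their translation rather than their amount. Growth of the heart under load needs more protein synthesis, which is served by new ribosomes and by faster use of existing ones. Some ribosomal proteins have a paralog used in particular tissues. Rpl3l replaces Rpl3 in heart and skeletal muscle, and Rpl10l and Rpl39l are known mainly from the testis.

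Promoter windows were matched for 47 of the 59 members in RefSeq (GRCm38.p6). Each window held 250 bases before and 50 bases after the annotated start of transcription, and a gene with several starts counted once if any of them held the motif. A C followed by 4 pyrimidines exactly at the start was found in 10 of 47 members (21.3%) and in 3.01% of all 27025 genes with a window. With the search widened to 10 bases on either side of the start, 28 of 47 members (59.6%) and 34.4% of all genes held it. The letters CGGAAG on either strand, the core that ETS factors bind, were found in 32 of 47 members (68.1%) and in 18.8% of all genes. The letters CAGCTG, an E-box that reads the same on both strands, were found in 3 of 47 members (6.38%) and in 18.3% of all genes. The 3 motifs share no position in the windows printed.

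To show these features beside the expression values, 150 bases around the start are given for 4 members: the muscle paralog Rpl3l and the subunit genes Rpl26 and Rpl37a, which fell in PAC, and Rps6, which differed little between groups. The sequences run 5′ to 3′ on the strand of the gene, from 100 bases before to 50 bases from the start. Capitals mark a C with 4 pyrimidines within 10 bases of the start, CGGAAG on either strand, and CAGCTG.
Rpl3l, chr17:24727726-24727875, plus strand: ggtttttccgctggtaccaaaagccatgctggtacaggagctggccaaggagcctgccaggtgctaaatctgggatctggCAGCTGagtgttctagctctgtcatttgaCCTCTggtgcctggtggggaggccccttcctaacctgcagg
Rpl26, chr11:68901466-68901615, plus strand: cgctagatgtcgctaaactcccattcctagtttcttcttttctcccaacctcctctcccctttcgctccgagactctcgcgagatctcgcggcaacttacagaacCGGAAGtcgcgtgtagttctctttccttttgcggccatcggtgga
Rpl37a, chr1:72711160-72711309, plus strand: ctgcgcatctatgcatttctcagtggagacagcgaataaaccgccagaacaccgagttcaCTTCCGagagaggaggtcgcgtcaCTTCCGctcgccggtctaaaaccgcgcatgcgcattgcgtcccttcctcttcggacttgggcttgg
Rps6, chr4:86857318-86857467, minus strand: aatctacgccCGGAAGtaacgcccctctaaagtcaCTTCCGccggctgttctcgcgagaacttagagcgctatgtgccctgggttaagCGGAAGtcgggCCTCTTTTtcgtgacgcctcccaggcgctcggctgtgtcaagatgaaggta
Rps6, which encodes the small subunit protein phosphorylated by S6 kinase, has the pyrimidine motif at its start and 3 ETS cores. Rpl37a has 2 ETS cores before its start, and Rpl26 has its ETS core 6 bases into the transcript. Rpl3l has no ETS core, carries the E-box 20 bases before its start, and has its pyrimidine motif 10 bases into the transcript rather than at the start. A match to letters is a description of these windows and shows no binding. Positions count from the annotated start, so a window without a marked pyrimidine motif does not show that its message lacks a TOP start.

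The values are log2 expression values from RMA, the array summary method the authors used, and a difference of 1 is a doubling. Genes were compared with limma over all 19938 genes, and a gene is said to have risen or fallen where its Benjamini-Hochberg adjusted p was 0.05 or less. Differences are given ± the limma standard error, and every level is the mean or the array value of that gene's own probe set. The smallest p that an exact permutation test of 2 against 2 arrays can reach is 0.33, and the p-values of genes come from limma's shared estimate of the spread. Cardiomyocyte markers stood at a mean of 13.25 to 13.35 on every array, while 3 of 8 lymphocyte markers (Cd3g, Cd79a and Ms4a1) lay on every array below the median of the unannotated probe sets (5.65 to 5.79) and the other 5 did not.

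The members varied little. Over the 12 arrays the mean level of the 59 members ran from 9.96 to 10.27, and the median range of a member was 0.41. The range over the 6 group means had a median of 0.24 for the members and 0.31 for all genes, with members from 0.04 (Rpl21) to 0.64 (Rpl3l). The median level of all genes was 6.74, and the ranges were not matched for level. The large subunit protein Rpl21 and Rps6, with a range of group means of 0.09, were among the steadiest.

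**Figure D1:**
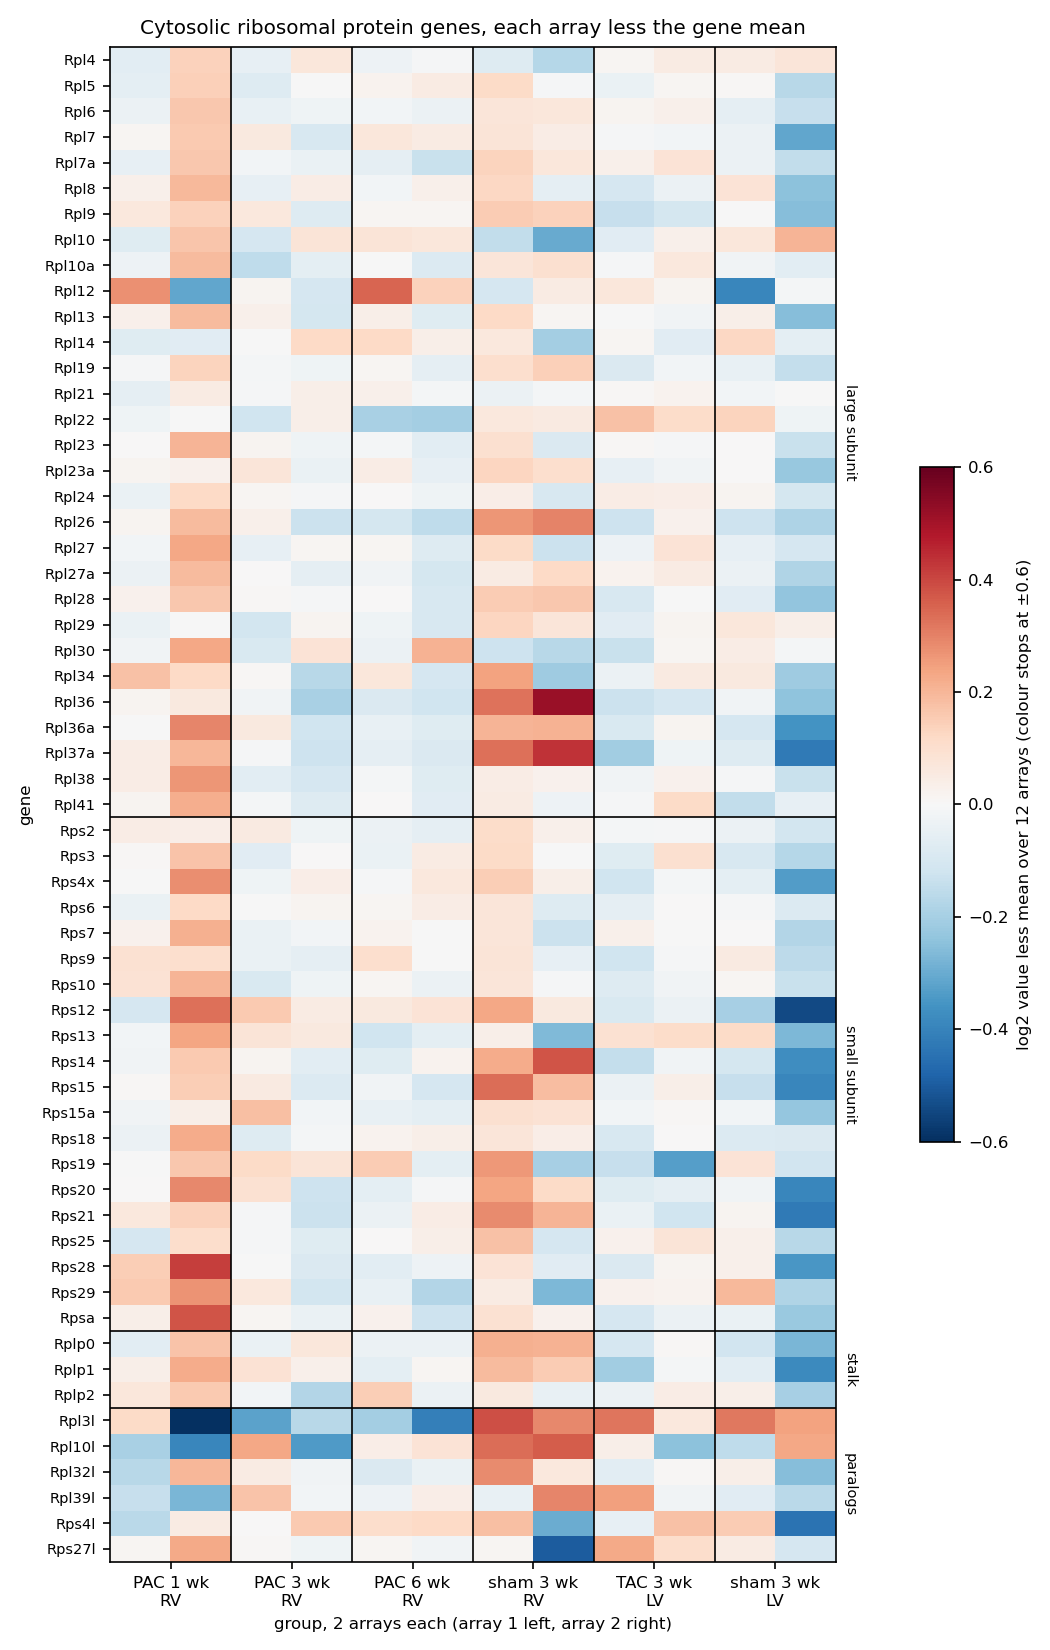
Heat map of the 59 genes (rows, grouped by role) on the 12 arrays (columns, 2 per group). Colour gives the log2 value less the gene's mean over all arrays and stops at 0.6 either way. PAC 1 week array 2 is red in most rows and sham LV array 2 is blue in most rows, while Rpl36, Rpl37a, Rpl26 and Rps14 are red in both sham RV arrays and Rpl3l is blue in the PAC arrays other than PAC 1 week array 1.

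Single arrays moved many members together. PAC 1 week array 2 was the highest of all 12 arrays in 32 of 59 members and exceeded its mate in 53 of 59, by a median of 0.17. Sham LV array 2 was the lowest in 40 of 59 members and lay below its mate in 53 of 59, with a median difference of -0.17. Over all genes the arrays of these pairs were near balance, with array 2 above array 1 in 47.5% of genes for PAC 1 week and in 50.3% for sham LV. Sham RV array 2 lay below its mate in 46 of 59 members, with a median difference of -0.08. Over all genes sham RV array 2 was above array 1 in 41.8%. TAC array 2 exceeded its mate in 44 of 59 members, by a median of 0.05. PAC 1 week array 2 also exceeded its mate in the mean of 10 fibroblast markers (11.27 against 10.36), of 12 macrophage markers (8.98 against 8.22) and of 11 cell cycle genes (7.78 against 6.98). Sham LV array 2 exceeded its mate in the mean of 6 atrial markers (9.16 against 7.97) and lay below it in fibroblast markers (9.47 against 9.98). The part of these markers in the ribosomal protein values was not tested. In pieces of tissue, fewer cells of a type and less RNA per cell cannot be told apart.

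**Figure D2:**
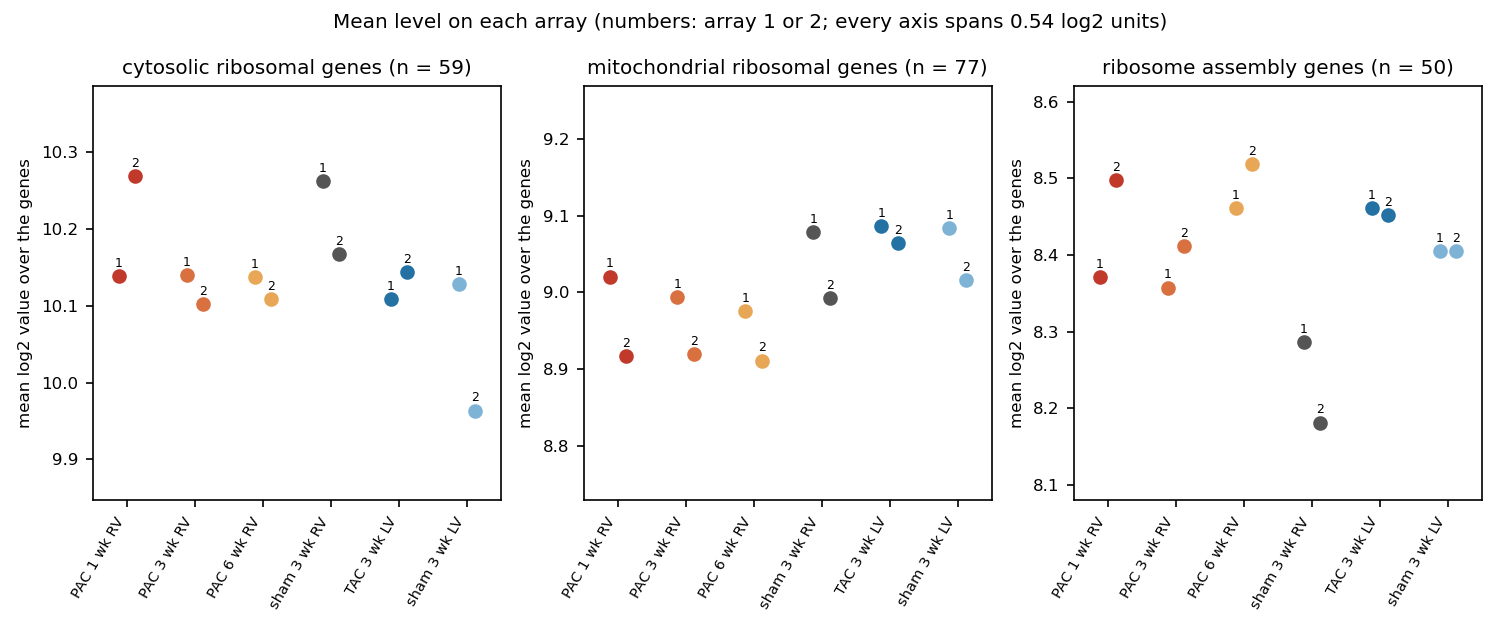
Mean log2 value over the genes of a list (vertical axis) on each array, for 59 cytosolic ribosomal, 77 mitochondrial ribosomal and 50 ribosome assembly genes, with array numbers 1 and 2 above the points. The cytosolic mean is highest on PAC 1 week array 2 (10.27) and sham RV array 1 (10.26) and lowest on sham LV array 2 (9.96), and the assembly mean is lowest on the sham RV arrays (8.29 and 8.18).

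The clipped right ventricle was compared with sham RV at 1, 3 and 6 weeks and as the mean of the 3 times, and these 4 comparisons share the same 2 sham arrays. Over the mean of the times 5 members fell and none rose: the large subunit genes Rpl36, Rpl37a and Rpl26, the small subunit gene Rps14, and the muscle paralog Rpl3l. Of all genes 12.6% fell and 12.2% rose by the same rule, so the share of members that fell (8.47%) was near the background and the share that rose (0%) was under it. At an unadjusted p under 0.05, limma put 2 members higher and 9 lower, against 18.1% and 23.5% of all genes. All 6 PAC arrays lay above both sham RV arrays in 3 members and below both in 12, against 16.8% and 21.8% of all genes. The median change of the members was -0.04, beside -0.05 over all genes. By role, 3 of 30 large subunit genes, 1 of 20 small subunit genes, none of 3 stalk genes and 1 of 6 alternative paralogs fell.

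Rpl36, a protein of the large subunit, had 10.72 and 10.76 in PAC at 1 week, 10.68 and 10.51 at 3 weeks, 10.61 and 10.58 at 6 weeks, and 11.03 and 11.22 in sham RV. Both sham RV arrays lay above all 6 PAC arrays, and the PAC arrays differed little among themselves. The change over the mean of the times was -0.48 ± 0.085, a fold of 0.717 (adjusted p = 0.00711, limma). The 9 probe sets annotated to Rpl36 alone agreed in sign, from -0.55 to -0.45. Probe sets of a gene were read on the same arrays, so their agreement, here and for other members, is not separate evidence.

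Rpl37a, a large subunit protein with a zinc-binding fold, had 9.47 and 9.63 in PAC at 1 week, 9.42 and 9.30 at 3 weeks, 9.37 and 9.34 at 6 weeks, and 9.76 and 9.86 in sham RV. The groups did not overlap, and the change was -0.39 ± 0.100 (adjusted p = 0.0221, limma). Rpl26, a large subunit protein beside the exit of the peptide tunnel, had 8.64 and 8.81 in PAC at 1 week, 8.65 and 8.49 at 3 weeks, 8.52 and 8.47 at 6 weeks, and 8.88 and 8.92 in sham RV. The groups did not overlap, PAC 1 week array 2 came nearest to sham RV, and the change was -0.30 ± 0.079 (adjusted p = 0.0224, limma). Rps14, a protein of the small subunit platform, had 10.84 and 11.02 in PAC at 1 week, 10.88 and 10.80 at 3 weeks, 10.79 and 10.88 at 6 weeks, and 11.08 and 11.24 in sham RV. The groups were apart by a narrow margin, the change was -0.29 ± 0.092 (adjusted p = 0.0425, limma), and the other probe set of Rps14 gave -0.40.

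Rpl3l, the striated muscle paralog of Rpl3, had 9.75 and 9.01 in PAC at 1 week, 9.32 and 9.47 at 3 weeks, 9.43 and 9.23 at 6 weeks, and 10.02 and 9.93 in sham RV. All 6 PAC arrays lay below both sham arrays, and the arrays at 1 week differed most, with array 2 the lowest of all. The change over the mean of the times was -0.61 ± 0.16, a fold of 0.657 (adjusted p = 0.0236, limma), and this was the largest fall among the members. At single times the changes were -0.59 at 1 week, -0.58 at 3 weeks and -0.64 at 6 weeks, with adjusted p-values of 0.0554, 0.0861 and 0.0628 that did not pass. Its partner Rpl3 was not measured alone, so no exchange between the paralogs could be read.

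These 5 calls rest on the 2 sham RV arrays. Without sham RV array 2 none of the members fell, and without sham RV array 1 a single member did, Rpl36 (-0.58, adjusted p = 0.028). Without sham RV array 2, Rpl36 changed by -0.38 (adjusted p = 0.0828) and Rpl3l by -0.65 (adjusted p = 0.12), so directions held where calls were lost. Leaving out sham LV array 1, or array 2, which enter through the shared spread alone, gave 8 members that fell. Leaving out TAC array 1, TAC array 2, PAC 1 week array 1, PAC 3 week array 2, PAC 6 week array 1 or PAC 6 week array 2 ended the call of Rps14, with adjusted p-values from 0.0545 to 0.0791, and fitting only the arrays compared ended it too (0.0562). Without PAC 1 week array 1, PAC 3 week array 1 or sham RV array 1, 1 member rose.

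**Figure D3:**
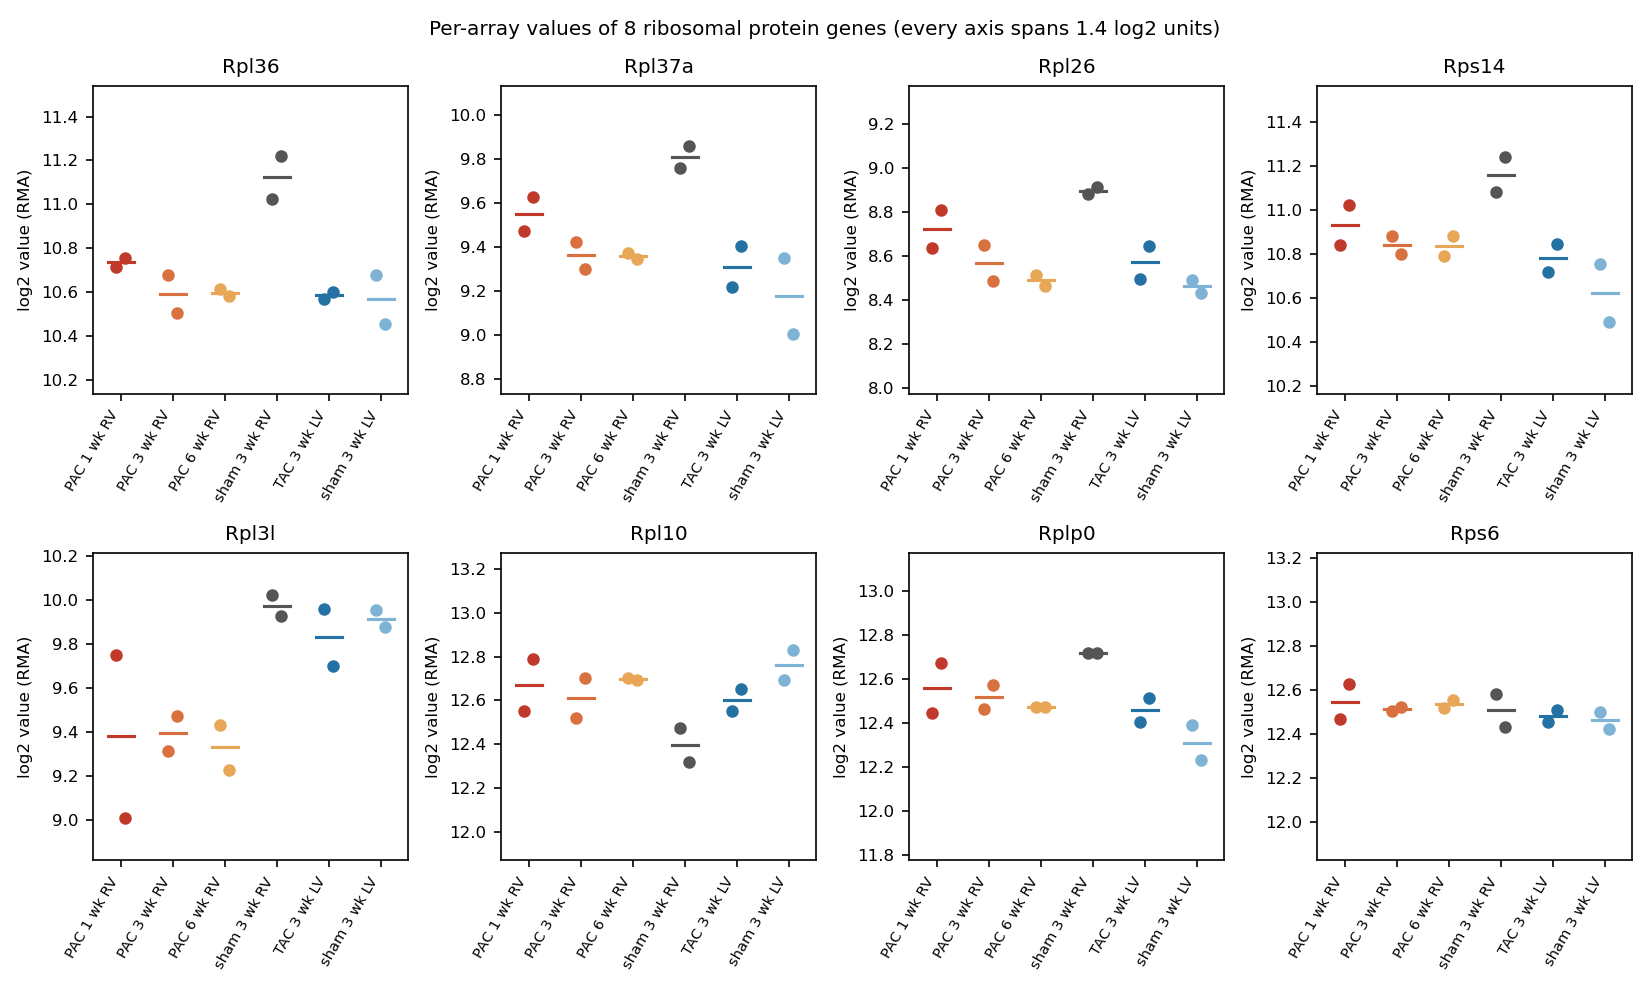
Log2 values on each array (points) and group means (bars) of 8 members, with every axis spanning the same length. Both sham RV points lie above all others for Rpl36, Rpl37a, Rpl26, Rps14 and Rplp0 and below all others for Rpl10, the PAC points lie lowest for Rpl3l with PAC 1 week array 1 (9.75) just above TAC array 2 (9.70), and Rps6 stays between 12.42 and 12.63.

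No member rose at any single time. At 1 week 2 members fell, Rpl36 (-0.39 ± 0.10, adjusted p = 0.0327) and Rpl10l (-0.64 ± 0.18, adjusted p = 0.0384), beside 9.57% of all genes that rose and 8.86% that fell. Rpl10l, the testis paralog of Rpl10, had 5.48 and 5.29 in PAC at 1 week and 6.01 and 6.04 in sham RV. These levels lie around the median of the unannotated probe sets, under which Rpl10l fell on 6 of 12 arrays, so the call compares signals near background. At an unadjusted p under 0.05 limma put 3 members higher and 4 lower, against 16.7% and 21.2% of all genes. Both calls at 1 week were lost without PAC 1 week array 2 (adjusted p = 0.121 for Rpl36 and 0.192 for Rpl10l), without sham RV array 1 (0.0515 and 0.107) and without sham RV array 2 (0.17 and 0.144), and that of Rpl36 also without PAC 1 week array 1 (0.0685), TAC array 1 or TAC array 2 (0.0505 each). When PAC 1 week array 1 or sham RV array 1 was left out, 1 member rose. With cyclic loess Rpl10l did not pass (adjusted p = 0.104), and with only the arrays compared neither Rpl36 (0.0962) nor Rpl10l (0.0586) did. The median change of the members was 0.0006 at 1 week, and it was 0.10 without PAC 1 week array 1 and -0.08 without PAC 1 week array 2.

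At 3 weeks Rpl36 alone fell (-0.53 ± 0.10, adjusted p = 0.0294), beside 3.22% of all genes that rose and 2.54% that fell. No member was higher at an unadjusted p under 0.05 and 7 were lower, against 13.7% and 16% of all genes. The change was negative in 47 of 59 members, with a median of -0.09 beside -0.05 over all genes. The next members by p were Rpl37a (-0.45, adjusted p = 0.0556), Rpl26 (-0.33, adjusted p = 0.0652), Rpl3l (-0.58, adjusted p = 0.0861) and Rps14 (-0.32, adjusted p = 0.097). The count was 0 without PAC 3 week array 2 (Rpl36, adjusted p = 0.198), sham RV array 1 (0.0679), sham RV array 2 (0.132) or either TAC array (0.0525 each), and 4 without either PAC 1 week array.

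At 6 weeks 3 members fell, Rpl36 (-0.52 ± 0.10, adjusted p = 0.0194), Rpl26 (-0.41 ± 0.096, adjusted p = 0.0304) and Rpl37a (-0.45 ± 0.12, adjusted p = 0.0456), beside 5.52% of all genes that rose and 3.73% that fell. By unadjusted p under 0.05 there were 1 member higher and 9 lower, against 14.2% and 16.1% of all genes. The change was negative in 43 of 59 members, with a median of -0.07 beside -0.05 over all genes. Rpl22, a large subunit protein that also binds other RNAs, had 9.18 and 9.17 in PAC at 6 weeks and 9.44 and 9.43 in sham RV, a change of -0.26 that did not pass (adjusted p = 0.0869). None of the 3 calls held without PAC 6 week array 2 or without sham RV array 2. A single call held without PAC 6 week array 1, where Rpl26 (adjusted p = 0.0549) and Rpl37a (0.082) were lost, and without sham RV array 1, where they were lost too (0.0864 and 0.0994). Fitting only the arrays compared ended the call of Rpl26 (0.0552). The call of Rpl37a was also lost without either PAC 3 week array (0.0558 each) and without either TAC array (0.0615 each).

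The members highest in PAC did not pass. Rpl10, the large subunit protein added late in assembly, had 12.55 and 12.79 in PAC at 1 week, 12.52 and 12.70 at 3 weeks, 12.70 and 12.69 at 6 weeks, and 12.47 and 12.32 in sham RV. Every PAC array lay above both sham arrays, all 6 probe sets of the gene were higher by 0.24 to 0.27, and the change of 0.26 ± 0.089 had an adjusted p of 0.0529. Rps27l, a paralog of Rps27 known as a target of p53, had 8.42 and 8.63 in PAC at 1 week, 8.41 and 8.38 at 3 weeks, 8.41 and 8.39 at 6 weeks, and 8.41 and 7.91 in sham RV. Its change of 0.28 ± 0.12 (adjusted p = 0.104) rested on sham RV array 2, since the other sham array stood among the PAC arrays.

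The stalk genes, Rps6 and Rpsa did not pass in any comparison. Rplp0, the base of the stalk and a common control gene in expression assays, had 12.44 and 12.67 in PAC at 1 week, 12.46 and 12.57 at 3 weeks, 12.47 and 12.47 at 6 weeks, and 12.72 and 12.72 in sham RV. It was lower on every PAC array than on either sham RV array, by -0.20 ± 0.082 over the mean of the times (adjusted p = 0.0912). Rps6 changed by 0.02 ± 0.073 (adjusted p = 0.815), and 7 of its 8 probe sets had the opposite sign. Rpsa, a small subunit protein also known as the laminin receptor precursor, changed by -0.01 ± 0.096 (adjusted p = 0.942, limma). All 5 probe sets of Rpsa were lower, from -0.16 to -0.01 with a median of -0.10, and the one used changed least.

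**Figure D4:**
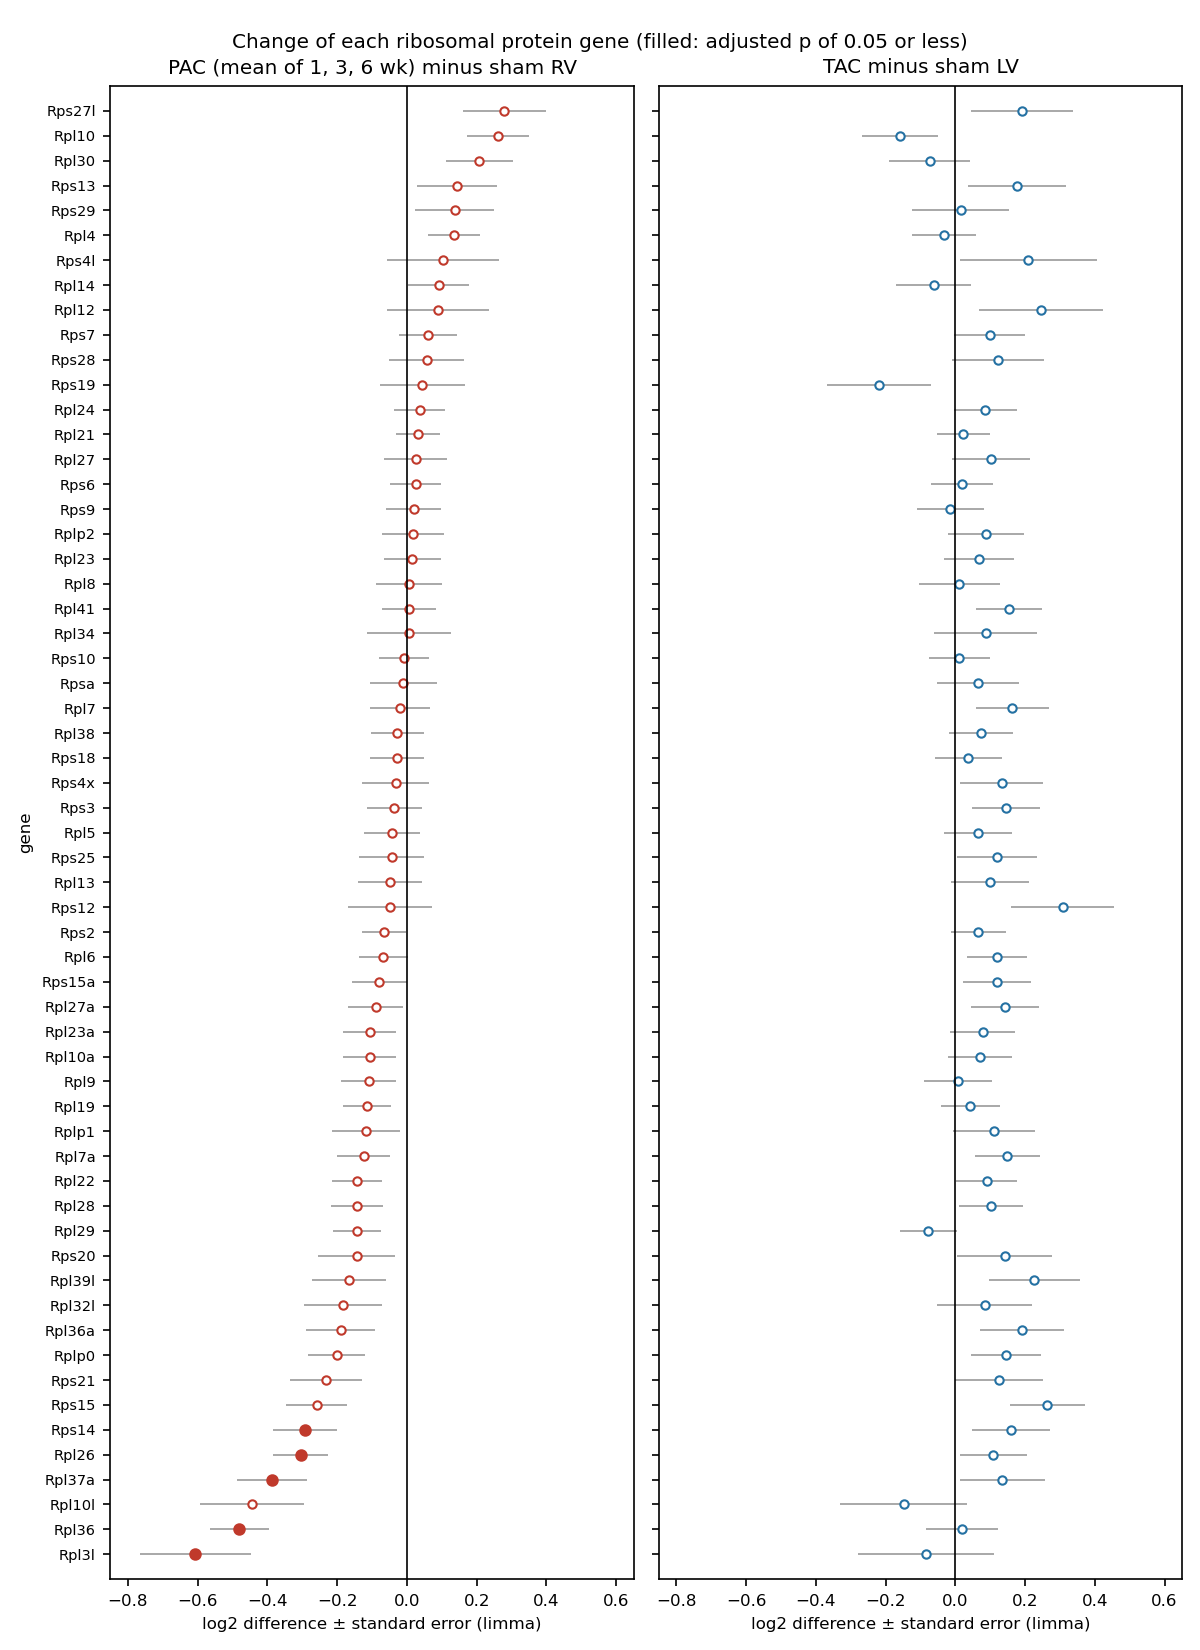
Log2 differences ± standard error (horizontal axis) of the 59 genes for PAC (mean of 1, 3 and 6 weeks) minus sham RV, on the left, and TAC minus sham LV, on the right, in the order of the PAC difference. Filled points passed at an adjusted p of 0.05 or less, and these are the 5 genes that fell in PAC, from Rps14 (-0.29) to Rpl3l (-0.61).

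Between PAC at 6 weeks and PAC at 1 week no member passed in limma, where 0.0351% of all genes rose and 0.0602% fell. At an unadjusted p under 0.05 no member was higher and 3 were lower (Rps28, Rpl26 and Rps29), against 4.27% and 5.48% of all genes. The difference was negative in 51 of 59 members, with a median of -0.09 beside 0.01 over all genes. Without PAC 1 week array 2 the median was -0.02, and without PAC 1 week array 1 it was -0.18. By p the first 5 were Rps28 (-0.33), Rpl26 (-0.23), Rps29 (-0.32), Rpsa (-0.25) and Rpl38 (-0.20), with adjusted p-values from 0.451 to 0.543.

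In the left ventricle no member passed between TAC and sham LV, and neither did any other gene (0% rose and 0% fell). At an unadjusted p under 0.05 limma put 1 member higher and 0 lower, against 1.9% and 2.93% of all genes. The difference was positive in 50 of 59 members with a median of 0.09, beside -0.02 over all genes. Both TAC arrays lay above both sham LV arrays in 19 members and below both in 3, against 18.2% and 23.1% of all genes. This median followed a single array: it was -0.01 without sham LV array 2 and 0.18 without sham LV array 1.

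Rps15, a small subunit protein near the decoding site, had 10.86 and 10.93 in TAC and 10.75 and 10.50 in sham LV, a difference of 0.26 ± 0.11 (unadjusted p = 0.0333, adjusted p = 0.985). Rps12, another small subunit protein, had 10.51 and 10.56 in TAC and 10.40 and 10.06 in sham LV, a difference of 0.31 ± 0.15 (adjusted p = 0.985). In both genes sham LV array 2 was the lowest of the 4 arrays and the groups did not overlap. Rpl3l had 9.96 and 9.70 in TAC and 9.95 and 9.88 in sham LV, which overlapped, and differed by -0.08 ± 0.19 (adjusted p = 0.992). Rplp0, Rps6, Rpsa and Rps27l differed by 0.15, 0.02, 0.06 and 0.19, all with adjusted p-values of 0.985 or more.

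Between the chambers of sham mice no member passed in limma, with 0.0752% of all genes higher and 0.336% lower in sham RV than in sham LV. At an unadjusted p under 0.05, 17 members were higher and 1 was lower in sham RV, against 9.63% and 11% of all genes. The difference was positive in 51 of 59 members with a median of 0.14, beside 0.02 over all genes. Both sham RV arrays lay above both sham LV arrays in 32 members and below both in 3, against 29.3% and 26.1% of all genes. Without sham LV array 1 the median was 0.22, and without sham LV array 2 it was 0.10.

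This comparison uses the same 2 sham RV arrays as the PAC comparisons, so its values are given side by side with those and not as separate evidence. Rpl36 had 11.03 and 11.22 in sham RV and 10.68 and 10.46 in sham LV, a difference of 0.55 ± 0.10 (adjusted p = 0.0504). Rpl37a had 9.76 and 9.86 in sham RV and 9.35 and 9.004 in sham LV, a difference of 0.63 ± 0.12 (adjusted p = 0.0504). Rps15, Rps14 and Rpl26 differed by 0.52, 0.54 and 0.44, with adjusted p-values of 0.0549, 0.0569 and 0.0646. None of these differences passed, and sham RV array 1 or 2 was the highest of the 4 arrays in each. Rplp0 and Rpsa were higher in sham RV by 0.41 (adjusted p = 0.0778) and 0.19 (adjusted p = 0.376), while Rps6 and Rps27l differed by 0.05 and -0.22. Rpl3l differed by 0.06 ± 0.19 (adjusted p = 0.885). Leaving out either PAC 1 week array, which enters this comparison through the shared spread alone, brought the count of members that were higher from 0 to 4.

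The sham RV arrays were also set against all other arrays. Both sham RV arrays lay above the other 10 arrays in 10 members (Rpl10l, Rpl23a, Rpl26, Rpl29, Rpl36, Rpl37a, Rplp0, Rps14, Rps15 and Rps21) and below them in 2 (Rpl10 and Rpl4). Over all genes the shares were 14.3% and 12.4%, so the count above was near the background and the count below was under it. Of the 5 members that fell in PAC, Rpl36, Rpl37a, Rpl26 and Rps14 were thus also higher on both sham RV arrays than on all 4 LV arrays. For Rpl3l the sham RV arrays (10.02 and 9.93), TAC arrays (9.96 and 9.70) and sham LV arrays (9.95 and 9.88) overlapped, and the PAC arrays other than PAC 1 week array 1 (9.75) lay below all 6 of them. The group means of Rpl3l were 9.38, 9.39 and 9.33 in PAC at 1, 3 and 6 weeks, 9.98 in sham RV, 9.83 in TAC and 9.92 in sham LV.

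The changes of the 3 week PAC and TAC hearts were set against each other as the PAC change minus the TAC change. No member and no other gene passed in limma (0% each way), and at an unadjusted p under 0.05 there were 1 member higher and 8 lower, against 5.91% and 6.03% of all genes. The median over the members was -0.19, beside -0.02 over all genes, and it was -0.09 without sham LV array 2 and -0.27 without sham LV array 1. The smallest p-values belonged to Rpl36 (-0.55 ± 0.15), Rps15 (-0.54 ± 0.15), Rpl37a (-0.58 ± 0.17), Rpl26 (-0.44 ± 0.14) and Rps14 (-0.48 ± 0.16), with adjusted p-values from 0.354 to 0.366. A difference between the PAC and TAC changes of these genes was therefore not shown.

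Genes that build ribosomes were examined beside the genes of the finished particle. Of 50 measured ribosome assembly genes, nucleolar proteins that process ribosomal RNA and join it to protein, 15 rose and 0 fell in PAC over the mean of the times (adjusted p of 0.05 or less, limma), and at an unadjusted p under 0.05 there were 28 higher and 1 lower. Over all genes 12.2% rose and 12.6% fell, and 18.1% were higher and 23.5% lower at the unadjusted p, against 30% and 0% and 56% and 2% of the assembly genes. Their median change was 0.21, beside -0.04 for the ribosomal proteins and -0.05 over all genes. At single times 10 rose at 1 week, 2 at 3 weeks and 11 at 6 weeks, against 9.57%, 3.22% and 5.52% of all genes, so the count at 3 weeks was near the background. The sham RV arrays, against which these rises were measured, had assembly means of 8.29 and 8.18. Those of all other arrays were higher, from 8.36 to 8.52. Counts without a sham RV array are not given for the assembly and translation lists. The difference between the lists was not tested, and the assembly list was drawn up with results of these arrays known. None passed in TAC, where no gene of any kind passed (0% rose and 0% fell), and the median of the assembly genes there was 0.06.

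Rrp12, which takes part in the export of both precursor subunits from the nucleus, had 7.85 and 8.29 in PAC at 1 week, 7.999 and 7.986 at 3 weeks, 8.38 and 8.54 at 6 weeks, and 7.39 and 7.56 in sham RV. It was higher on every PAC array, and it rose by 0.70 ± 0.11 over the mean of the times (adjusted p = 0.00553). Nop58, a core protein of the particles that methylate ribosomal RNA, rose by 0.58 ± 0.091 (adjusted p = 0.00553). Utp15, of the complex that processes small subunit RNA, rose by 0.49 ± 0.11 (adjusted p = 0.013), and Gnl3, nucleostemin, by 0.48 ± 0.091 (adjusted p = 0.00829). Rrp12 had 8.10 and 8.18 in TAC and 7.99 and 8.15 in sham LV, above both sham RV arrays, and the median of the assembly genes was -0.15 for sham RV minus sham LV.

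Of 32 initiation factor genes 10 rose (31.2%) and 1 fell (3.12%) in PAC over the mean of the times. This stood beside 12.2% and 12.6% of all genes, and the median of the initiation factors was 0.11. Their mean was 9.72 and 9.79 on the sham RV arrays, below every other array. It ran from 9.83 to 9.91 in PAC, 9.84 to 9.86 in sham LV and 9.90 to 9.92 in TAC. Eif1a, which helps the small subunit scan for the start codon, rose by 0.62 ± 0.14 (adjusted p = 0.0136), and the poly(A)-binding protein gene Pabpc1 rose by 0.44 ± 0.11 (adjusted p = 0.0215). Eif3h and the helicase gene Eif4a1 rose by 0.39 (adjusted p = 0.0191) and 0.33 (adjusted p = 0.0306). Of 7 elongation and termination genes 2 rose and 2 fell (28.6% each, beside the same 12.2% and 12.6%). The elongation factor gene Eef1a1 rose by 0.32 ± 0.089 (adjusted p = 0.0297) and its muscle and nerve paralog Eef1a2 fell by 0.23 on the log2 scale (adjusted p = 0.0294).
Eef1a1 had 13.17 and 13.46 in PAC at 1 week, 13.23 and 13.35 at 3 weeks, 13.11 and 13.26 at 6 weeks, and 12.96 and 12.93 in sham RV. Eef1a2 had 12.45 and 12.35 in PAC at 1 week, 12.50 and 12.42 at 3 weeks, 12.47 and 12.44 at 6 weeks, and 12.65 and 12.68 in sham RV. Neither gene overlapped between PAC and sham RV. The release factor gene Etf1 rose by 0.44 ± 0.070 (adjusted p = 0.00553, limma). Etf1 had 9.63 and 9.60 in sham RV, 9.97 to 10.17 in PAC, and 9.955 and 9.954 in sham LV. Eef1d, which reloads the elongation factor with GTP, fell by 0.37 on the log2 scale (adjusted p = 0.0068, limma).

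Of 17 regulators of translation 2 rose (11.8%) and 0 fell, and the share that rose was near the 12.2% of all genes. The 2 were Myc, a transcription factor that drives ribosome production, and Rheb, the GTPase that activates mTOR complex 1. Myc rose by 0.69 ± 0.17 (adjusted p = 0.0212, limma) and Rheb by 0.42 ± 0.11 (adjusted p = 0.0217, limma). Rheb had 9.70 and 9.34 in sham RV, 9.80 to 10.13 in PAC, and 10.13 and 10.39 in sham LV. Myc had 6.13 and 6.15 in sham RV, 6.43 to 7.40 in PAC, and 6.57 and 6.45 in sham LV. At an unadjusted p under 0.05, 2 of the 17 regulators were higher and 2 lower. All genes gave 18.1% and 23.5%, so both counts were under the background. Of 11 genes of RNA polymerase I and its factors, which transcribe ribosomal RNA, 1 rose and 1 fell (9.09% each, near the background). Taf1b rose by 0.38 (adjusted p = 0.0454, limma) and Polr1a fell by 0.27 on the log2 scale (adjusted p = 0.0153, limma). Ribosomal protein genes that the symbol rule leaves out, Fau, Rps3a1 and Rpl7l1, changed by -0.14, -0.15 and -0.14 in PAC over the mean of the times, and none passed in any comparison.

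The ribosomal proteins of mitochondria, encoded by other genes, gave 3 that rose and 9 that fell of 77 in PAC over the mean of the times, with a median of -0.08. The share that fell (11.7%) was near the 12.6% of all genes, and the share that rose (3.9%) was under the 12.2%. Mrpl12 changed by -0.47 (adjusted p = 0.0084) and Mrpl32 by 0.29 (adjusted p = 0.0252). Lists of cell type markers, atrial muscle genes and cell cycle genes were followed in the same comparison. Of 10 fibroblast markers 8 rose and 0 fell, with array means from 10.15 to 11.27 in PAC and from 9.35 to 9.40 in sham RV. Of 12 macrophage markers 4 rose and 0 fell, with array means from 7.90 to 8.98 in PAC and from 7.75 to 7.78 in sham RV, and of 11 cell cycle genes 6 rose and 0 fell. Of 6 atrial markers 5 rose and 0 fell, with array means from 8.44 to 10.71 in PAC and from 6.80 to 7.39 in sham RV. Of 10 endothelial markers 7 rose and 0 fell, with array means from 9.71 to 10.05 in PAC and from 9.51 to 9.55 in sham RV. Of 8 lymphocyte markers 0 rose and 2 fell (Cd3e and Cd8a, which mark T cells), with array means from 5.53 to 5.63 in PAC and from 5.70 to 5.76 in sham RV. These lymphocyte means lie around the median of the unannotated probe sets (5.65 to 5.79), so they compare signals near background. The fibroblast, macrophage, cell cycle, atrial, endothelial and lymphocyte means did not overlap between PAC and sham RV. Of 16 cardiomyocyte markers 1 rose and 2 fell. The part of these shifts in the ribosomal protein and assembly values was not tested.

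**Figure D5:**
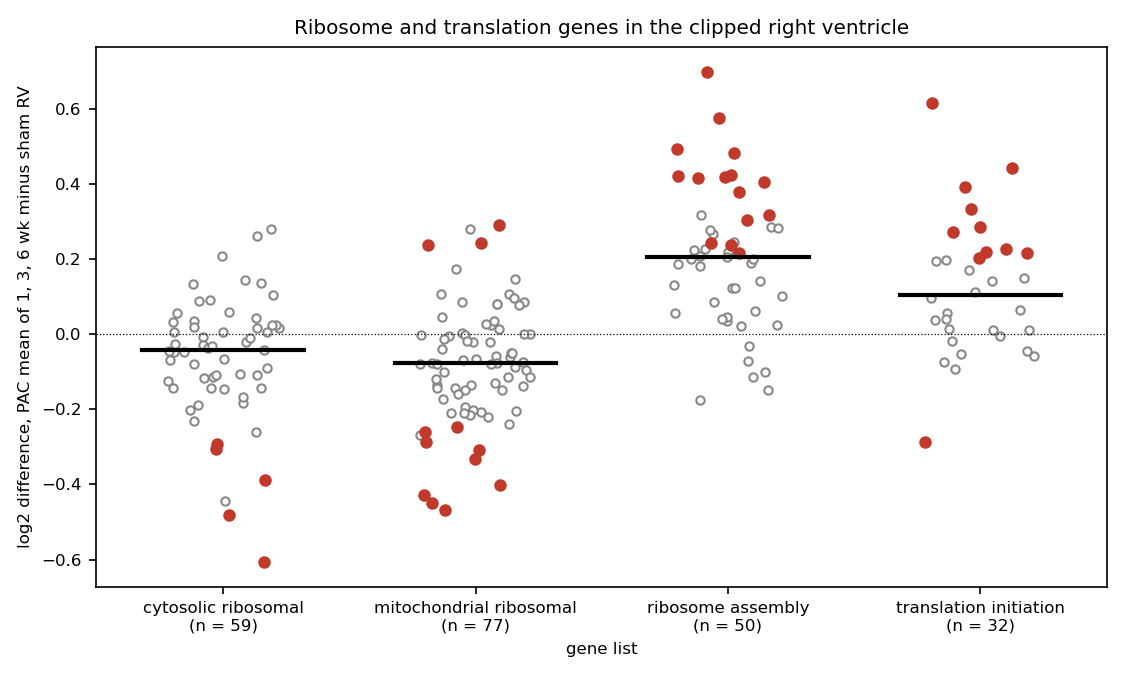
Log2 change of each gene for PAC (mean of 1, 3 and 6 weeks) minus sham RV (vertical axis) in 4 gene lists, with black bars at the medians and filled points for genes that passed. The medians are -0.04 for cytosolic ribosomal, -0.08 for mitochondrial ribosomal, 0.21 for ribosome assembly and 0.11 for translation initiation genes, and filled points lie only below 0 in the cytosolic list and only above 0 in the assembly list.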

How the data were processed

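Biotin-labelled total RNA was hybridised to whole-transcript arrays, 1 per sample. The authors deposited log2 values, which RMA in Affymetrix Power Tools gave per the submitters' processing notes. For software versions and genome build, the sources used here name none. Of 35556 probe sets 21789 had a single gene, 1621 had several and 12146 were unlisted. Ribosomal protein genes have many processed pseudogenes, whose transcripts a probe set may also read. The fit by limma 3.58.1 (R 4.3.3) took the 12 arrays together, with a mean for each group (6 residual and 4.6 prior degrees of freedom), with 8 comparisons and Benjamini-Hochberg adjustment over 19938 genes. The fit was tested on simulated data. The members and lists were chosen with earlier results of these data known. Members to be named were those that passed, or the 5 of smallest p where fewer than 5 passed, with Rpl3l, Rps27l, Rplp0, Rps6 and Rpsa throughout. Up to 4 genes per related list were named too, and Rpl10, Rpl22 and Rps12 as further examples. Not all of these values are printed, among them Rpl39l at 1 week, Rps15 at 6 weeks, and Rpl39l, Rpl41 and Rpl7a in TAC. The values left out still count among the named values below. The alternatives were cyclic loess, probe set means, no low genes, a trended robust prior, only the arrays compared, a replicate block and leaving out each array, with 2 added after seeing the data. The precision is limited by 2 arrays per group.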

Additional observations from a re-analysis of the deposited data

Results flagged for a closer look

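In 9 members both PAC arrays at 3 weeks lay on one side of sham RV and both TAC arrays on the other side of sham LV, a pattern found in 6.72% of all genes. The difference of the changes did not pass in limma for any of them. The PAC change minus the TAC change was 0.37 for Rpl10 (adjusted p = 0.401), -0.26 for Rpl10a (0.44), -0.44 for Rpl26 (0.366), -0.25 for Rpl27a (0.461) and -0.43 for Rpl36a (0.392). It was -0.23 for Rpl6 (0.46), -0.28 for Rpl7a (0.427), -0.34 for Rplp0 (0.4) and -0.54 for Rps15 (0.354).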

How the results depend on the processing

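Of the 75 named values, the 11 that passed kept direction and call in 168 of 219 alternative values and lost the call in 51, and none changed sign. The 64 that did not pass gained a call in 52 of 1278 alternative values and changed sign in 45. Of 320 alternative counts of members 44 changed the result. Leaving out genes below the median level gave 3 members that fell at 3 weeks and 6 at 6 weeks, 1 that rose in PAC over the mean of the times, and 9 higher in sham RV than in sham LV. A trended robust prior gave 3 that fell at 3 weeks, 1 that rose and 6 that fell at 6 weeks, 1 that rose and 8 that fell over the mean of the times, and 9 higher and 1 lower in sham RV than in sham LV. Cyclic loess gave 8 that fell over the mean of the times. Fitting only the arrays compared, and leaving out both PAC 1 week array 2 and sham LV array 2 (chosen after seeing the data), each gave 0 that fell at 1 week and 3 at 3 weeks. Fewer arrays or genes entered these fits, and for the other settings the cause was not tested. Leaving out each array gave 0 to 2 members that fell at 1 week, 0 to 4 at 3 weeks, 0 to 4 at 6 weeks and 0 to 8 over the mean of the times. It gave 0 to 1 that rose at 1 week and over the mean of the times, 0 to 4 higher in sham RV than in sham LV, and 0 in every other count.

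With the replicate number as a block, 1 member rose over the mean of the times, 5 fell, and the fall of Rpl37a at 6 weeks had an adjusted p of 0.0533, while the other calls held. In deviations from group means, arrays of the same number correlated by 0.261 to 0.37 between the PAC times and by -0.0939 to 0.0198 between PAC and sham RV. Over all pairs of groups the range was -0.241 to 0.37. The labels name nothing that a number marks, so the arrays were not treated as paired, and between PAC at 6 and 1 weeks no member passed with the block either. With 2 arrays per group, a p that misses the threshold does not show that levels were equal, and probe sets near background (Rpl39l, Rpl10l) compare weak signals.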
